A study of Mus musculus with 4 samples.

Results

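Glycolysis turns glucose into pyruvate in the cytosol, and the genes described here encode its enzymes, the kinases that set its pace, and the enzymes that send pyruvate to lactate, to the mitochondrion or glucose to glycogen. Several steps are served by more than 1 gene. In low oxygen, hypoxia-inducible factors (HIF) bind near many of these genes and raise their transcription. An enzyme can thus have a HIF-driven isoform and another set more by tissue type, though the split is not strict. HIF also raises the kinases that close pyruvate dehydrogenase, which turns pyruvate away from respiration and towards lactate.

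The list holds 36 genes, taken by symbol, and was drawn up with earlier results of these data known. Of these, 30 had a row that named them alone, out of 22180 genes with such a row. Aldoa and Pgm1 had only rows shared with another gene, and Gpi1, Pfkfb1, Eno1 and Mpc2 were not analysed here. The measured genes were sorted into 15 HIF-driven genes (of 18 listed), reported as HIF targets in other work, and 14 other isoforms and enzymes (of 16 listed). Hk1, Eno2 and Pdk3 were placed among the others, and an alternative counted them as HIF-driven. Pgm2 was left unsorted, because mouse annotations have exchanged its symbol with Pgm1.

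Gene expression was read on 4 Affymetrix Mouse Gene 2.0 ST arrays, which probe the exons of each transcript. The arrays held wild-type and Tbx1 knockout (Tbx1KO) embryos of a mixed C57BL/6J x FVB/N background, as a pair of heads at embryonic day 12.5 (E12.5) and a pair of palatal shelves, which later fuse into the palate, at E13.5. Tbx1 encodes a T-box transcription factor of the pharyngeal apparatus, and the comparison asks which genes differ without it. There was 1 array in each group, the knockout allele is not described in the labels, and they do not say whether embryos were pooled. No difference within a pair therefore has a replicate check or a p-value. The description of the E13.5 samples reads as head, whereas their titles name palatal shelves, and the titles were followed.

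Values are log2 expression, so a difference of 1 is 2-fold. A gene entered a comparison when its higher array reached 6.16, the median over named genes and arrays, and 26 of the 36 listed genes did so in each pair. Pgam2, Pklr, Pdk1 and Pdk4 did not enter. As a yardstick with no replicates, the knockout minus wild-type differences of probe rows of the same gene were compared. Their SD within a gene was 0.177 over 254 genes for the heads and 0.220 over 255 genes for the shelves. These rows share arrays, so this SD between rows of 1 gene holds no spread between embryos. Marker genes of palatal mesenchyme had a mean level of 9.26 in the wild-type shelves and 8.24 in the wild-type head, and epithelial markers 8.30 and 6.75, over the genes that entered. Neuronal markers had a mean of 9.69 in the wild-type head and 7.42 in the wild-type shelves. Tbx1 was at 6.83 in wild-type and 6.25 in knockout head, and at 7.39 and 6.18 in the shelves. Xist was at 11.10 in the wild-type and 10.04 in the knockout head, and at 10.89 and 11.02 in the shelves. Eif2s3y, of the Y chromosome, was at 7.09 and 8.50 in the heads and at 8.23 and 8.43 in the shelves. Both lay above 6.16 on every array, and these sex-linked transcripts differed along with genotype in the head. Pgk1, Pdk3 and Pdha1 lie on the X chromosome.

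HIF proteins bind a short core, ACGTG or GCGTG, and the promoters of members of either class were searched for these letters. The windows printed here all hold them, so they do not show how common the letters are. Shown are the 250 bases before the start site of the hexokinase gene Hk2, the phosphofructokinase gene Pfkp and the kinase gene Pgk1, which were higher in the knockout shelves, and of the lactate dehydrogenase pair Ldha and Ldhb, which differed there. They come from RefSeq on GRCm38.p6, in which all 36 listed genes had an entry, 57 windows in all, and capitals mark each stretch that holds ACGTG or GCGTG on either strand. Hk2 is at chr6:82774455-82774704 (minus strand), Pfkp at chr13:6648772-6649021 (minus), Pgk1 at chrX:106186850-106187099 (plus), Ldha at chr7:46845554-46845803 (plus, the upstream of 2 windows) and Ldhb at chr6:142507958-142508207 (minus).
Hk2: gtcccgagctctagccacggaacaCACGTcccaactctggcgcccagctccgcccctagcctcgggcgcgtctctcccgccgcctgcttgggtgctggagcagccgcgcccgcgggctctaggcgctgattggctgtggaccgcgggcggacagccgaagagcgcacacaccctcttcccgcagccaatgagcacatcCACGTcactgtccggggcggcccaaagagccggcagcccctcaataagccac
Pfkp: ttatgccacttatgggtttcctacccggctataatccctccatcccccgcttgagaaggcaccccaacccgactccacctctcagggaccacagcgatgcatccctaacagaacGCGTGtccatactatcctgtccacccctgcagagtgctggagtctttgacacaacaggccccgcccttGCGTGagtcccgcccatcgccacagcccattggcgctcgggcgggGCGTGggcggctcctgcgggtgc
Pgk1: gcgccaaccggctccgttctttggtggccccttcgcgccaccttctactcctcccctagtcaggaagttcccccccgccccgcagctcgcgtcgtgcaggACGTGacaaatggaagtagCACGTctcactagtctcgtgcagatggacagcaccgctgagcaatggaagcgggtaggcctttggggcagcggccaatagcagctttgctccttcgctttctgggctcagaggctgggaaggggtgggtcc
Ldha: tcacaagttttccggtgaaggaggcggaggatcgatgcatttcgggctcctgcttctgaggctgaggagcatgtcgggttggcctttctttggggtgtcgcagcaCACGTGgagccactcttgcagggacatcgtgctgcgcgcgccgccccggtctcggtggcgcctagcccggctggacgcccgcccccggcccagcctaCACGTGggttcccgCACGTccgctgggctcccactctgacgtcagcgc
Ldhb: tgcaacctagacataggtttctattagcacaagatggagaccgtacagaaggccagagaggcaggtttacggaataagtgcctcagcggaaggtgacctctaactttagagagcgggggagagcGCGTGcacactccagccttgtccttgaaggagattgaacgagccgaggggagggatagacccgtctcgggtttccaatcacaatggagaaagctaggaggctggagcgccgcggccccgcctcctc

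The core was found in 20 of the 27 windows of HIF-driven genes (74.1%) and in 17 of the 28 windows of the other isoforms (60.7%). Over all 32851 promoter windows of the same length the share was 38.6%, and over windows in the middle range of CpG content of these genes it was 50.4%. Median CpG content, in percent of dinucleotides, was 5.62 in HIF-driven windows, 3.21 in the others and 4.02 in that range. The shares of the classes thus differ along with CpG content. The form ACGTG was in 9 HIF-driven windows (33.3%) and in 7 of the others (25%). It was in 16.6% of all windows and 21.6% of those in that range. The Ldha window shown has stretches that begin at -145, -48 and -34 from the start, where ACGTG sits on both strands within CACGTG in the first and second. The other Ldha window has no ACGTG and 1 stretch of the GCGTG form, at -59. Ldhb likewise has 1 stretch of the GCGTG form, at -126, so a contrast of the pair depends on the Ldha window taken. Gys1, Tpi1, Gbe1 and Gpi1 are HIF-driven genes without the letters in any window. Of these, Gys1 was higher in the knockout shelves by 0.76, Tpi1 by 0.42 and Gbe1 by 0.061, and Gpi1 was not measured. Windows of 1 gene can overlap, and a match is a description of the sequence, not a site.

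**Figure D1:**
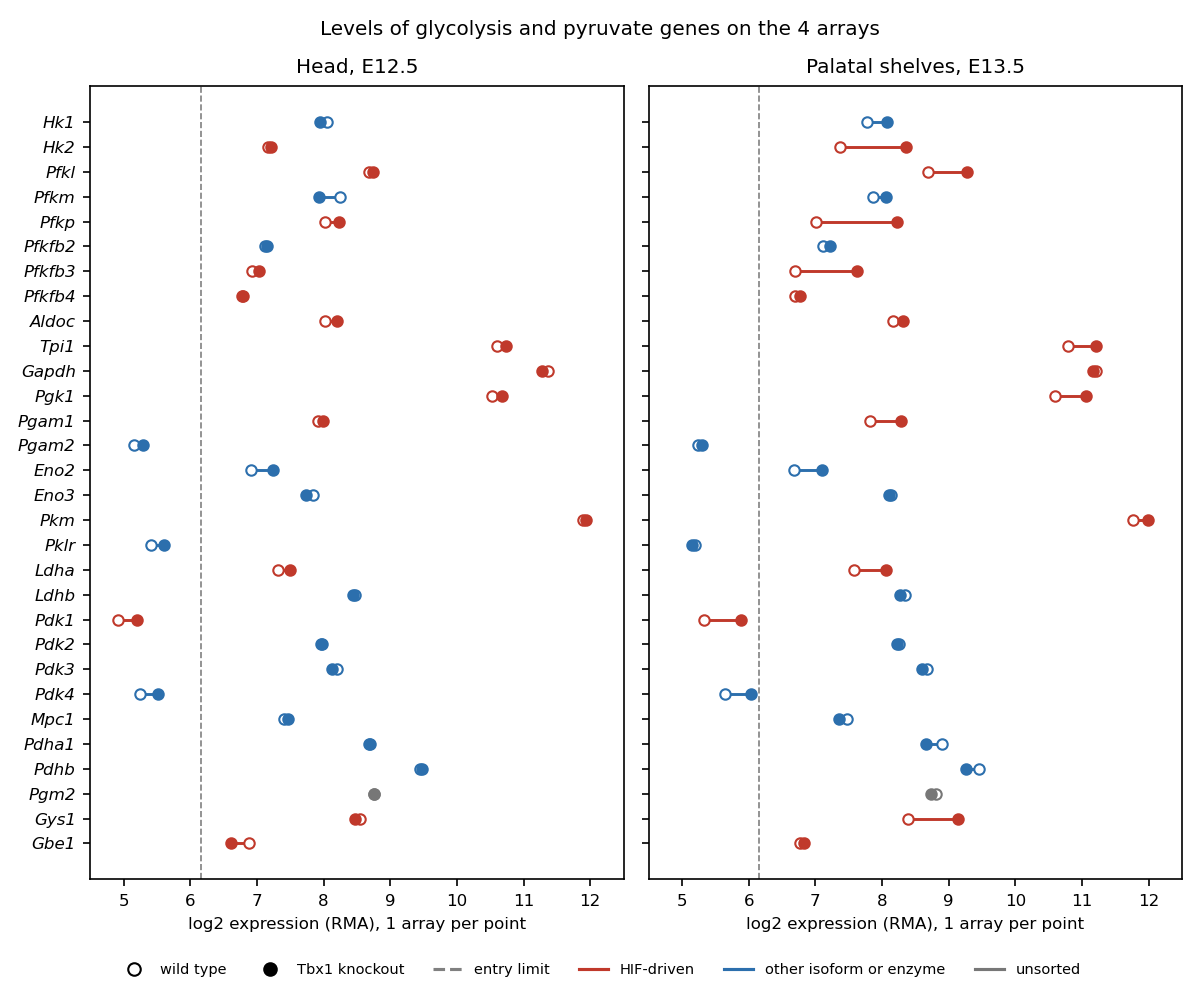
Log2 expression of each of the 30 measured genes (rows, in pathway order) in the head at E12.5 and the palatal shelves at E13.5, with 1 array per point, open for wild type and filled for Tbx1 knockout. In the shelves the lines of Pfkp, Hk2, Pfkfb3 and Gys1 are the longest, and levels should not be compared between genes, since each has its own probes.

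In the E13.5 palatal shelves, HIF-driven glycolytic genes were higher in the knockout array, while the other isoforms lay around 0. Pfkp, Hk2, Pfkfb3, Gys1 and Pfkl, all HIF-driven, reached a 1.5-fold excess, and no member a 1.5-fold deficit. Among the 11449 genes compared, 1.91% reached that excess and 1.34% that deficit. The median difference of the 14 HIF-driven genes that entered was 0.46, with 13 above 0, and that of the 11 other isoforms and enzymes was -0.039, with 4 above 0. All genes had a median of 0.021, and 55.2% lay above 0.

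The largest shelf differences among the entered members were those of Pfkp and Hk2, which serve steps at the top of the pathway. Other genes of these steps differed less. Hexokinase traps glucose in the cell by phosphorylating it. Hk2, its inducible isoform, was at 7.17 in the wild-type head, 7.21 in the knockout head, 7.38 in the wild-type shelves and 8.36 in the knockout shelves. The knockout shelf array stands alone above the other 3, by 1.98-fold over wild-type shelves. Hk1, the constitutive isoform, was at 8.04, 7.94, 7.78 and 8.08 in the same order, a span in which the knockout shelves resembled the wild-type head.

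Phosphofructokinase makes the committed step, and its platelet-type gene Pfkp was the only member past 2-fold in this pair. Its levels were 8.02 in wild-type head, 8.24 in knockout head, 7.003 in wild-type shelves and 8.23 in knockout shelves, a 2.34-fold difference in the shelves that ranks 29 among the genes that entered. Of all genes, 0.463% exceeded 2-fold upwards there and 0.472% downwards. Pfkp differs from Hk2 in that the wild-type shelves were the low array, and the knockout shelves were level with the heads. Pfkl, the liver-type gene, was at 8.68, 8.75, 8.68 and 9.27, with only the knockout shelves apart, by 0.59. Pfkm, the muscle-type gene, was at 8.25, 7.93, 7.87 and 8.05, lower in the knockout head by 0.31 and higher in the knockout shelves by 0.18. Pfkl lay just inside the 1.5-fold limit (0.585 on the log2 scale), and the next gene outside it was Ldha at 0.49.

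The PFKFB enzymes make and break the small molecule that activates phosphofructokinase. Pfkfb3, whose enzyme favours making it, was at 6.93, 7.04, 6.69 and 7.63, and the knockout shelves exceeded wild type by 1.91-fold. Pfkfb4, also reported as a HIF target, was at 6.79, 6.78, 6.70 and 6.77 and hardly varied. Pfkfb2, known best from heart, was at 7.12, 7.15, 7.12 and 7.21. Within this family the HIF-driven label thus did not separate the genes.

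The later steps of glycolysis showed smaller differences of the same sign. Tpi1, which interconverts the triose phosphates, was at 10.60 and 10.74 in the heads and at 10.80 and 11.21 in the shelves, 1.34-fold higher in the knockout shelves. Pgk1, which makes the pathway's earliest ATP, was at 10.52 and 10.67 in the heads and at 10.60 and 11.06 in the shelves (1.37-fold). In each of these genes the knockout array was the higher of its pair in both tissues.

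Pgam1, a phosphoglycerate mutase, averaged 7.92 and 7.99 in the heads and 7.82 and 8.28 in the shelves. Its rows disagreed in size in the shelves, with differences of 0.69 for the dimmer and 0.24 for the brighter row. In the head they disagreed in sign, with 0.24 for the dimmer and -0.097 for the brighter row. Pkm, the pyruvate kinase gene of most tissues, was at 11.89 and 11.94 in the heads and at 11.76 and 11.98 in the shelves. The gene-level rows do not separate its splice forms.

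Gapdh and Aldoc did not share the shelf pattern. Gapdh, often used as a reference gene, averaged 11.36 in wild-type head, 11.28 in knockout head, 11.22 in wild-type shelves and 11.16 in knockout shelves. Its brighter rows stood at 12.50 and 12.44 in the wild-type shelves, above 99.8% of all rows on that array, and differed by 0.011 and 0.044 between the shelf arrays. Aldoc, the brain-type aldolase, was at 8.02 and 8.20 in the heads and at 8.17 and 8.31 in the shelves, with much the same difference in each pair (0.18 and 0.14). Gapdh, Pgk1, Ldha, Tpi1 and Pgam1 have processed pseudogenes, so their rows may share signal with copies.

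Enolase was read through its neuronal and muscle isoforms. Eno2, the neuronal isoform, was at 6.91 in wild-type head, 7.24 in knockout head, 6.68 in wild-type shelves and 7.10 in knockout shelves. It was the member with the largest difference in the head (0.33) and was also higher in the knockout shelves (0.42). Eno3, the muscle isoform, was at 7.84 and 7.73 in the heads and at 8.14 and 8.10 in the shelves. Pgam2 (5.15 to 5.29 over the arrays), of muscle, and Pklr (5.16 to 5.61), of liver and red cells, lay below the entry limit on all 4 arrays.

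The lactate dehydrogenase pair separated most simply. Ldha, whose enzyme subunit favours making lactate from pyruvate, was at 7.32 in wild-type head, 7.49 in knockout head, 7.57 in wild-type shelves and 8.06 in knockout shelves. Ldhb, the heart-type subunit, was at 8.47, 8.44, 8.34 and 8.28. Ldha was higher in the knockout of either pair, by 0.17 and 0.49, and Ldhb differed by -0.032 and -0.066.

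Pyruvate dehydrogenase kinases switch off the enzyme that feeds pyruvate into respiration. Pdk1, the HIF-driven kinase, had a bright row at 7.43 in wild-type head, 7.78 in knockout head, 8.02 in wild-type shelves and 8.89 in knockout shelves, a shelf difference of 0.88. Its other row stayed between 2.41 and 2.86 on all 4 arrays, and the mean over both kept the gene below the entry limit, with a shelf difference of 0.55. Pdk2 was at 7.97 and 7.96 in the heads and at 8.26 and 8.22 in the shelves, and Pdk3 at 8.21 and 8.13 and at 8.68 and 8.60, each close within its pair. Pdk4, known for its rise on fasting, stayed below the limit (5.24 to 6.03).

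The enzymes that bring pyruvate into the mitochondrion lay on the other side of 0 in the shelves. Pdha1 and Pdhb encode the E1 subunits of pyruvate dehydrogenase, and Mpc1 a subunit of the mitochondrial pyruvate carrier. Pdha1 was at 8.90 in wild-type and 8.66 in knockout shelves, a difference of -0.24, Pdhb at 9.45 and 9.26 (-0.19), and Mpc1 at 7.47 and 7.35 (-0.12). In the heads their differences lay between -0.017 and 0.063. Mpc1 averages 2 rows that disagreed. The brighter row differed by -0.22 in the shelves and by 0.16 in the head, and the dimmer row by -0.013 and -0.034. Of the 3 genes only Pdha1 exceeded the SD between rows of 1 gene. The 3 genes were grouped after their values were seen.

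Glycogen genes of the list went apart. Gys1, the glycogen synthase of most tissues, was at 8.54 in wild-type head, 8.48 in knockout head, 8.39 in wild-type shelves and 9.15 in knockout shelves, 1.69-fold higher in the knockout shelves and slightly lower in the knockout head. Gbe1, the branching enzyme, was at 6.88 and 6.61 in the heads and at 6.76 and 6.82 in the shelves. It was lower in the knockout head by 0.27 and showed 0.061 in the shelves. Pgm2 was at 8.75 on either head array, and at 8.81 and 8.73 in the shelves.

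**Figure D2:**
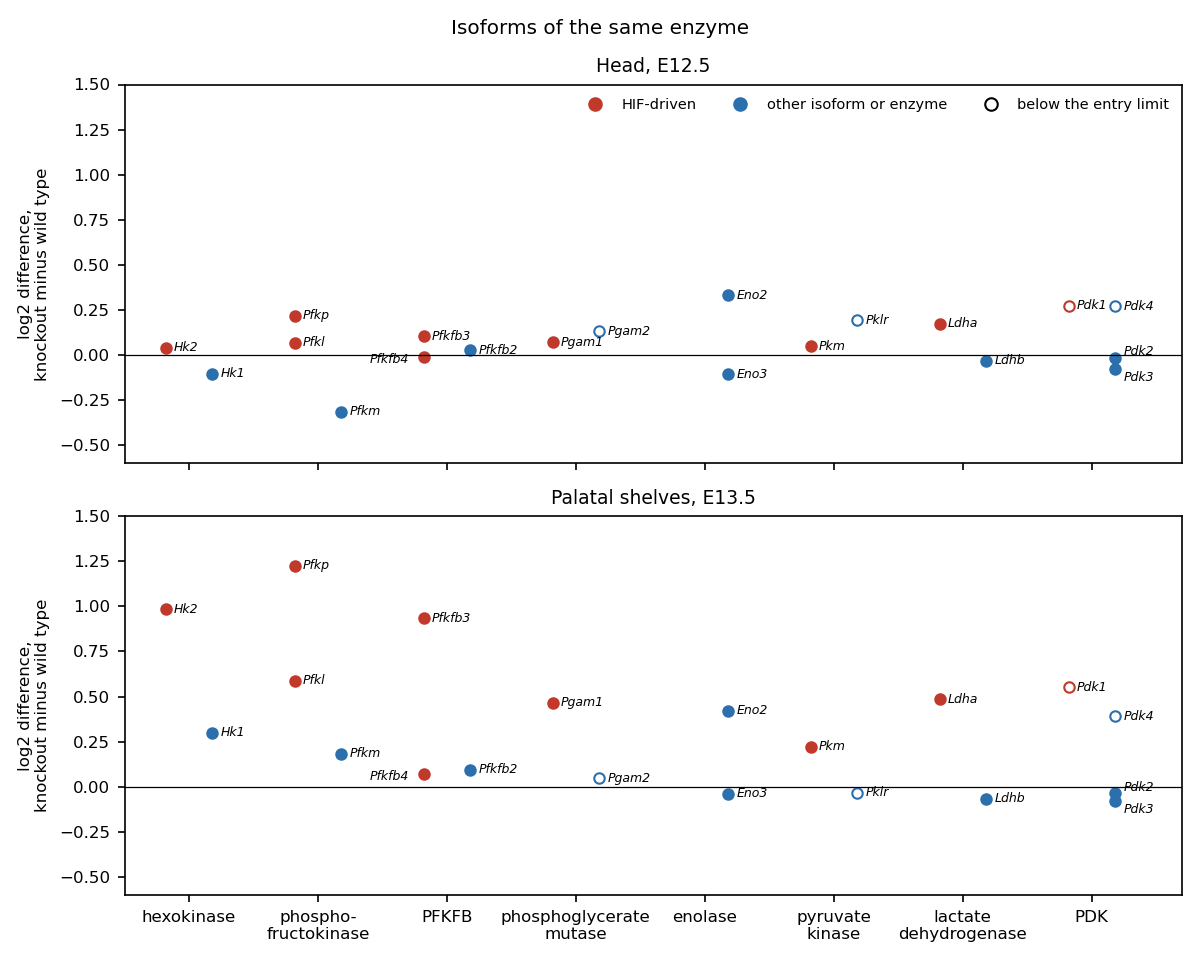
Log2 difference, knockout minus wild type, of the isoforms of each enzyme in the head (top) and palatal shelves (bottom), red for HIF-driven and blue for other isoforms, with open points below the entry limit and 1 pair of arrays per panel. In the shelves Hk2 lies above Hk1, Pfkp and Pfkl above Pfkm, and Ldha above Ldhb, while Pfkfb4 lies level with Pfkfb2.

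Isoforms of the same enzyme could be set side by side in 4 families with an entered gene of each class. In the shelves the mean difference of the HIF-driven isoforms exceeded that of the others by 0.68 for hexokinase, 0.72 for phosphofructokinase, 0.41 for PFKFB and 0.55 for lactate dehydrogenase. In the head the same gaps were 0.14, 0.46, 0.022 and 0.21. The phosphofructokinase gap of the head came largely from Pfkm, which was lower in the knockout. Every HIF-driven isoform lay above every other isoform of its family in hexokinase, phosphofructokinase and lactate dehydrogenase, in both pairs, and not in PFKFB.

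In the E12.5 head, no member differed by 1.5-fold. Eno2 was 1.26-fold higher and Pfkm 1.24-fold lower in the knockout, Pfkp was higher by 0.22 and Gbe1 lower by 0.27. Among the 11364 genes compared, 0.106% reached a 1.5-fold excess and 0.352% a 1.5-fold deficit, and 0.0352% and 0.0528% did so at 2-fold, so a count of 0 among 26 is near that background. The median difference of all entered members was 0.028, with 14 of 26 above 0. For HIF-driven genes the median was 0.070 (10 of 14 above 0), and for the other isoforms -0.017 (4 of 11 above 0). All genes had a median of -0.017 and 44.5% lay above 0. Only 5 of the 26 members exceeded the SD between rows of 1 gene in size, against 20.0% of all genes. In the shelves 13 of 26 did so, against 24.1% of all genes. Of these members, 12 were higher in the knockout, where 15.1% of all genes were higher by more than that SD.

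**Figure D3:**
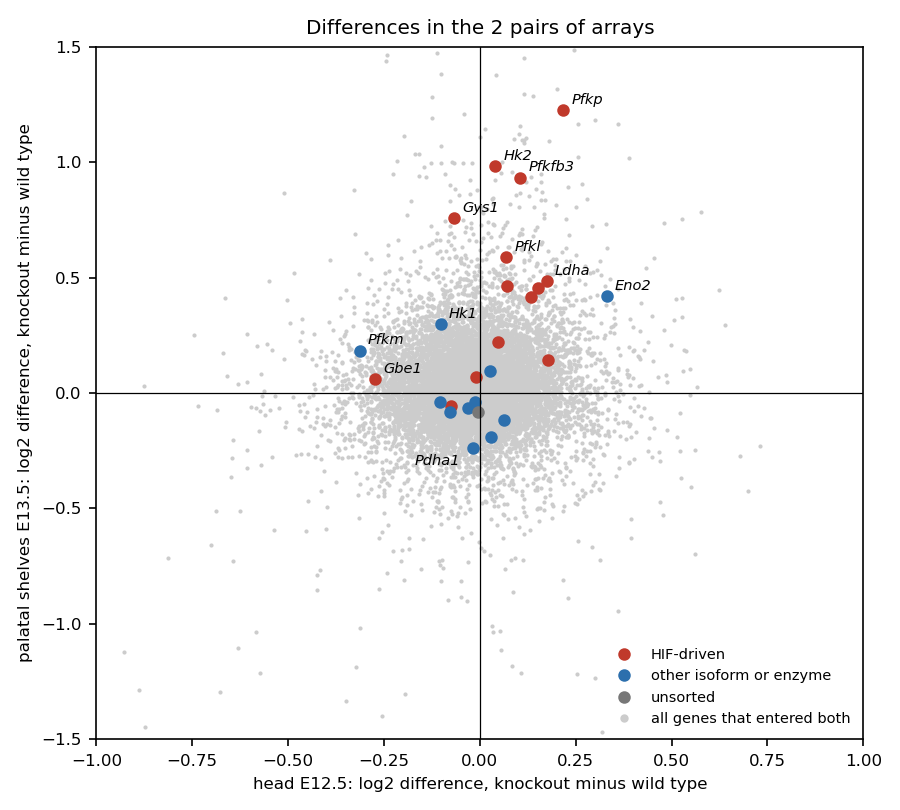
Log2 difference, knockout minus wild type, in the head (x axis) and in the palatal shelves (y axis) for each gene that entered both comparisons, with members coloured by class over all genes in grey, some of which lie beyond the axes. HIF-driven genes spread upwards along the shelf axis to 1.23 and stay between -0.27 and 0.22 on the head axis.

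The difference in the shelves exceeded that in the head for 13 of the 14 HIF-driven genes and for 5 of the 11 others, compared with 59.2% of all genes. Its median was 0.32 for HIF-driven genes, -0.0026 for the others and 0.049 for all 10814 genes. Head and shelves differ in stage as well as in tissue, and with 1 array per group the difference between the pairs was not tested.

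**Figure D4:**
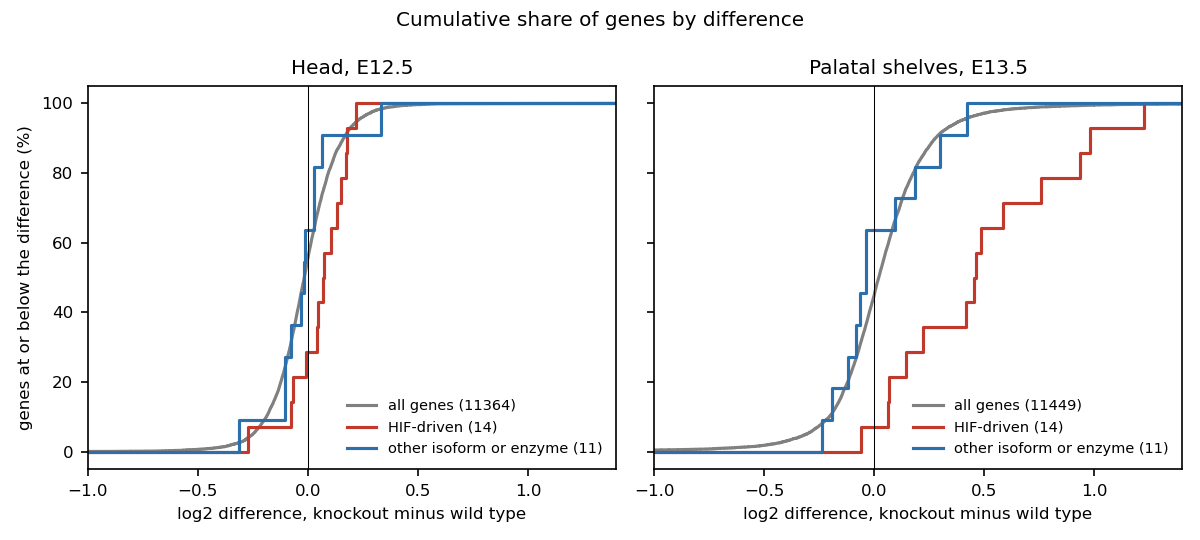
Cumulative share of genes (y axis, percent) at or below each log2 difference (x axis) in the head (left) and palatal shelves (right), for HIF-driven genes, other isoforms or enzymes and all genes that entered. In the shelves the HIF-driven line lies to the right of all genes, with a median of 0.46, and the line of the other isoforms runs close to that of all genes.

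Over both pairs, an additive limma fit of genotype and tissue called no member for genotype. The fit covered 11999 genes with 1 residual degree of freedom, which holds the disagreement between the pairs. A gene that differed in the shelves alone therefore gets a larger SE, as did Hk2 (SE 0.21) and Gys1 (SE 0.19). The smallest limma adjusted p of a member was 0.919, and 0 of all genes passed 0.05. That count rested on the limma prior, with 11 genes called under a mean-variance trend and 150 under 1 common variance. Without adjustment, 7 of the 26 members had a limma p under 0.05, against 5.23% of all genes, and from 4 with robust eBayes to 11 with the trend. Eno2 had a genotype difference of 0.38 (SE 0.10, limma adjusted p = 0.919) and Pfkp of 0.72 (SE 0.22, limma adjusted p = 0.919). The others were Ldha, Pfkfb3, Pgk1, Hk2 and Tpi1, and all 7 were higher in the knockout of either pair. The differences of Eno2 in the pairs were closer to each other than those of Pfkp.

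Between the tissues, members differed in either direction. In wild type the shelves minus head difference had a median of -0.00026 over the members, with 13 of 26 above 0, against 45.5% of all genes. Pfkp was the member at least 2-fold lower in the wild-type shelves than in the wild-type head, by 2.02-fold, where 5.27% of all genes were, and also the 1 member past 1.5-fold lower (10.3% of all genes). None was 1.5-fold or 2-fold higher, against 7.39% and 2.89% of all genes. In the limma fit, 6 of 26 members had an unadjusted tissue p under 0.05, against 40.2% of all genes. After adjustment, Pdk3 was higher in the shelves by 0.47 (SE 0.10, limma adjusted p = 0.0146) and Ldha by 0.41 (SE 0.12, limma adjusted p = 0.0425). The coefficient takes in both genotypes. In wild type alone the difference was 0.47 for Pdk3 and 0.25 for Ldha, so that of Ldha leans on the knockout shelves. Over all genes 13% were called higher and 14.9% lower in the shelves. These differences join tissue and stage, which cannot be told apart.

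Other genes of glucose handling gave the shelf pattern in part. Of 10 transporter genes, 7 were above 0 in the knockout shelves, with a median of 0.21. Slc2a3, a high-affinity glucose transporter of neurons and embryonic tissue, was at 7.83 and 8.13 in the heads and at 7.15 and 8.34 in the shelves, a 2.27-fold difference there. Slc16a3, the exporter of lactate in glycolytic cells, was at 6.56, 6.82, 6.87 and 7.78, 1.88-fold higher in the knockout shelves. Slc2a1, the widespread glucose transporter, was higher there by 0.43. In the head 8 of 9 transporters were above 0, with a median of 0.16, led by Slc2a3 at 0.30.

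Mitochondrial and side pathways had medians near 0 in the shelves. The 16 citric acid cycle genes had a median of -0.031, from Fh1, fumarase, at -0.24 to Sdhc, a membrane subunit of succinate dehydrogenase, at 0.33. The 7 partners of pyruvate dehydrogenase had a median of -0.13, with Dlat, its E2 subunit, at -0.17. The 5 pentose phosphate genes had a median of 0.012. Other glycolytic isoforms and bypass enzymes had a median of 0.094 over 7 genes, with Gpd2, the mitochondrial glycerol phosphate dehydrogenase, at 0.36. The 9 glycogen genes outside the list had a median of 0.087, and Pygl, the liver-type glycogen phosphorylase, was 1.92-fold higher in the knockout shelves (6.39 and 7.33). In the head these lists had medians of -0.0073, -0.012, 0.0079, 0.00071 and 0.0054.

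**Figure D5:**
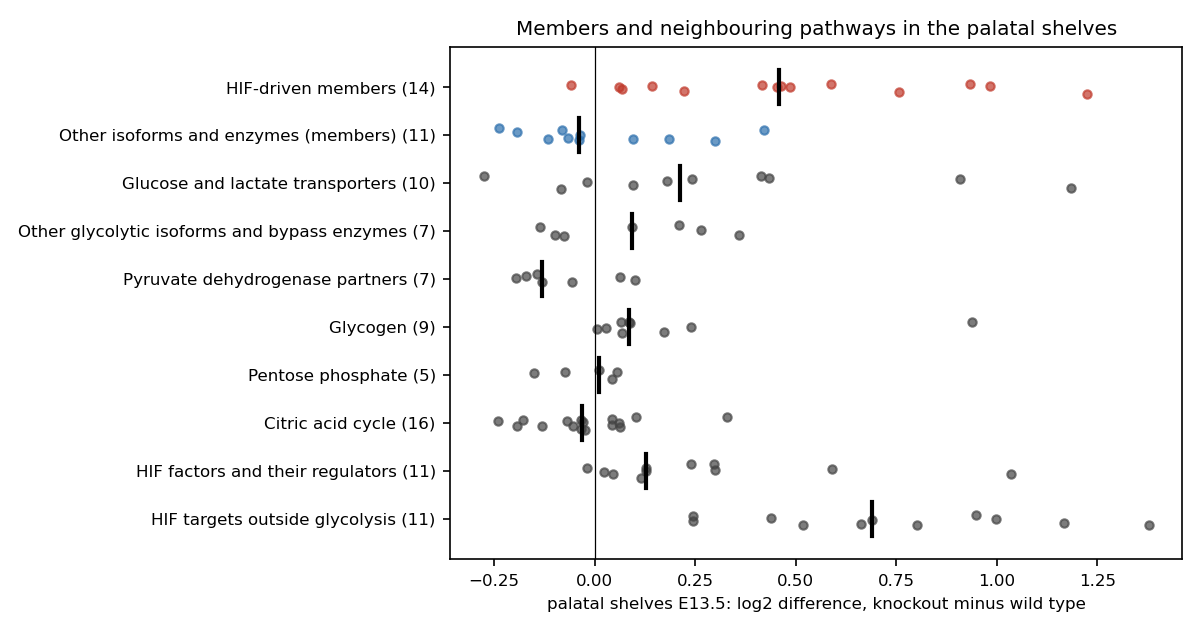
Log2 difference, knockout minus wild type, in the palatal shelves for each gene (points) of the member classes and neighbouring gene lists, with the median as a black bar and the number of entered genes in brackets. HIF-driven members and HIF targets outside glycolysis have medians of 0.46 and 0.69, and citric acid cycle genes one of -0.031.

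HIF targets outside glycolysis were higher in the knockout shelves too. Of 11 that entered, 11 were above 0 with a median of 0.69, among them Bnip3, a mitophagy receptor (2.60-fold), and Vegfa, the endothelial growth factor (2.25-fold). In the head 4 of 10 were above 0, with a median of -0.014. Among the transcripts of the factors themselves, the shelf difference was 0.30 for Hif3a and 0.30 for Arnt2, which exceed the SD between rows of 1 gene, and 0.13 for Hif1a, 0.13 for Arnt and 0.022 for Epas1, which do not. HIF is mainly controlled through the stability of its protein, which arrays do not read. Egln3 and Egln1, prolyl hydroxylases that mark HIF for destruction and are themselves HIF targets, were higher in the knockout shelves by 1.04 and 0.59. The whole list of factors and regulators had medians of 0.13 in the shelves and -0.064 in the head.

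Markers of several cell types differed in the same arrays. In the shelves, 14 of 15 neuronal markers were above 0 in the knockout, with a median of 0.58, and their mean level was 7.42 without and 8.02 with the knockout. Skeletal muscle markers were below 0 in 17 of 17 genes (median -1.11, mean levels 7.22 and 6.18), endothelial markers were above 0 in 8 of 9 (median 0.23), and leukocyte markers below 0 in 6 of 7 (median -0.28). Medians in the shelves were -0.38 for neural progenitors, -0.14 for epithelium, 0.16 for palatal mesenchyme, -0.012 for cartilage, 0.022 for the erythroid list and -0.058 for proliferation. In the head they were 0.0037 for neurons, -0.68 for muscle, 0.058 for endothelium, -0.11 for leukocytes, -0.050 for neural progenitors, 0.050 for epithelium, 0.045 for palatal mesenchyme, -0.12 for cartilage, -0.40 for the erythroid list and -0.15 for proliferation. The part of these cells in the differences of the glycolytic genes was not tested, and fewer cells of a type cannot be told apart from less RNA per cell.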

How the data were processed

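The authors deposited log2 values for each row of probes, a transcript cluster. The submitters' processing notes name Affymetrix Expression Console and RMA, without versions, and the build was not found in the labels. The deposited arrays had medians from 5.64 to 5.70, so differences near 0 move with the scaling. With arrays there is no read depth; precision is limited by how many there are.

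Rows were named through the platform annotation. Of 41345 rows, 23521 had 1 symbol, 1814 had several and were left out, and 16010 had none. Rows of a gene were averaged. Differences were taken between arrays, with no test within a pair, and the median of a list was set beside that of all genes. Genotype and tissue were fitted over the 4 arrays with limma 3.58.1 in R 4.3.3 (lmFit, eBayes, Benjamini-Hochberg over all genes). The residual of that fit is the disagreement between the head and shelf differences of a gene, moderated by the limma prior. That disagreement may be biological or technical, and the p-values do not measure spread between embryos. Motifs were searched in RefSeq promoter windows.

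All members are named, with Tbx1 and, per other list and pair, genes among the 4 largest differences. Xist, Eif2s3y, Hif1a and the shelf values of Arnt and Epas1 fall outside that rule and were chosen after their values were seen. The members and lists were chosen with earlier results of these data known, so agreement with those results is not independent support. Alternatives were other normalizations, row rules, filters, folds and limma priors.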

Additional observations from a re-analysis of the deposited data

Results flagged for a closer look

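Rows that name a member together with another gene were left out of the comparisons. In both pairs, 3 of them were higher in the knockout array by more than the SD between rows of 1 gene. The row of Aldoa and Aldoart1 was higher by 0.52 in the head and by 0.57 in the shelves, but lay below the entry limit on all arrays (5.20 to 6.02). The row of Pgm1 and Itgb3bp was higher by 0.35 in the head and by 0.57 in the shelves, where it was at 7.07 in wild type and 7.65 in the knockout. The row of Gapdh-ps15 and Gapdh was higher by 0.32 in the head and by 0.32 in the shelves, at levels from 4.17 to 4.88, where folds are compressed. Which of the genes a row reads cannot be told apart.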

How the results depend on the processing

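Of 98 values of the results under alternatives, 90 stayed close to the reported value, meaning within the SD between rows of 1 gene for a median and within 1.5 times for a count. That SD was 0.438 for the wild-type comparison. The head and wild-type medians, and the shelf median of all members, were smaller than their SD, so they could change sign and still count as close. The head median of all members was -0.0095 with an upper-quartile filter instead of 0.028. The members at least 2-fold different in the shelves were 0 at 3-fold and 5 at 1.5-fold instead of 1. Members at least 1.5-fold higher there were 4 with each array centred, quantile normalization again or cyclic loess, where Pfkl was just below the limit, 4 with an upper-quartile filter or without Pfkp, and 6 with the brightest row of a gene, which brings in Pdk1. With 1 common variance in limma, 2 members had a genotype adjusted p under 0.05 (Pfkp and Pfkfb3) instead of 0. Members called for tissue by limma were 4 with rows of several genes kept, 1 without a filter on dim genes, 5 with an upper-quartile filter, 8 with a mean-variance trend and 4 with 1 common variance, instead of 2. The cause of these shifts was not tested. The difference of medians between HIF-driven genes and other isoforms in the shelves ranged from 0.43 to 0.52. With Hk1, Eno2 and Pdk3 counted as HIF-driven it was 0.47. Without Pfkp, Hk2 and Eno2 it was 0.49, and the median of all members in the shelves was 0.096 instead of 0.16.

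Of 450 values of single members, 448 stayed close and 0 reversed. Only a reported difference larger than the SD between rows of 1 gene could count as reversed. In the head that held for 5 of the 26 entered members, so the count of 0 says little there. With the brightest row the shelf difference was 0.24 for Pgam1 and 0.88 for Pdk1. The signs of 5 head and 2 shelf differences near 0 changed under some setting, as did the wild-type shelves minus head differences of Pfkfb2 and Pgam1. The limma fit already sets each knockout against the wild type of its tissue, and the labels carry no replicate numbers for another block. Leaving out an array leaves no residual degree of freedom, so no such fit was run. Leaving out Pfkp, alone or with Hk2 and Eno2, and the values per member were chosen after seeing the data.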

Other observations

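Rows that name Gapdh together with Gm12070 numbered 7, stood between 12.52 and 13.14, and differed between knockout and wild type by -0.045 to -0.0060 in the head and by -0.012 to 0.047 in the shelves. The dimmest Gapdh row, at 8.71 in the wild-type and 8.49 in the knockout shelves, differed by -0.23, so the mean over Gapdh rows leans on the row least like the others. A row of Hk1 with its antisense gene Hk1os was at 6.65 in wild-type and 6.72 in knockout shelves.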
